A study of Mus musculus with 36 samples.

Results

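The comparison described here sets keratinocytes that lack plakophilin-4 (PKP4) against wild-type keratinocytes after 24 h in low calcium medium (LCM). It rests on 6 of the 36 libraries of the series, 3 labelled Pkp4-knockout (PKP4-KO) and 3 labelled Pkp4-wildtype (WT), chosen by their labels alone. All cells were primary murine keratinocytes from the epidermis of newborn pups. WT cells came from Pkp4+/+ pups. PKP4-KO cells came from Pkp4-/- pups that carry an allele derived from strain C57BL/6N-Pkp4 tm1b(EUCOMM)Wtsi/JMmucd. Its exon 9 had been removed by Cre, its lacZ reporter was then bred out with an FLPe strain, and the mice were backcrossed onto C57BL/6J. The genotypes were thus isolated from different animals, and neither the labels nor the methods say how many pups stand behind a genotype or whether the 3 libraries of a group are separate isolations. The p-values below measure the spread between libraries of the same group. In the test across all genes, that spread was estimated over all 36 libraries, not from these 6 alone. Both groups were kept in the same growth factor-supplemented medium, with calcium low enough that cell contacts do not mature, and were lysed at the same time. For side-by-side values, 3 libraries of Rescue cells at 24 h LCM were used, which are PKP4-KO keratinocytes that express EGFP-tagged PKP4 from a lentivirus (labelled GFP-PKP4-tagged Pkp4-knockout). The PKP4 they express is human, and they were selected with puromycin. The PKP4-KO effect was also compared with that after 24 h in high calcium medium (HCM) and after 72 h in LCM, each with 3 WT and 3 PKP4-KO libraries.

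PKP4, also called p0071, belongs to the p120-catenin family of armadillo proteins, which bind the cytoplasmic tails of cadherins. It is found at adherens junctions and desmosomes and is known as a scaffold for regulators of the small GTPase RhoA, which sets the activity of actomyosin through its kinase ROCK. Keratinocytes in low calcium grow as a basal-like, proliferating layer with few cell contacts, because cadherins need calcium to bind one another. Adding calcium starts junction assembly and then differentiation. A comparison in low calcium therefore asks which transcripts differ between the genotypes before mature junctions have formed.

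The deleted exon is shown because it marks the allele that separates the groups. Exon 9 of the 21 exons of Pkp4 transcript Pkp4-210 spans 220 bases on the plus strand at chr2:59142038-59142257 of GRCm39, within the gene at chr2:58991088-59185552. The exon numbering of the allele may follow another transcript.
Pkp4 exon 9: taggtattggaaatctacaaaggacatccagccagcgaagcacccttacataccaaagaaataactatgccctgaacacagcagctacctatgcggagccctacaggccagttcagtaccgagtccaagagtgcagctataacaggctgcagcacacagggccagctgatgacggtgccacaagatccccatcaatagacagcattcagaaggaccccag

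Pkp4 itself was lower in every library labelled knockout. Its level, in counts scaled to a common library size with TMM factors (CPM), was 76.2, 67.9 and 69.1 CPM in WT replicates 1, 2 and 3, against 8.24, 9.99 and 8.71 CPM in PKP4-KO. The means were 71.1 ± 4.49 CPM in WT and 8.98 ± 0.902 CPM in PKP4-KO (SD, n = 3 each), so that 12.6% of the WT level remained. The exact two-sided permutation test gave p = 0.1, the smallest value that 3 against 3 libraries allow, and edgeR's quasi-likelihood test across all genes gave a log2 fold change of -2.98 ± 0.17 (SE) with adjusted p = 3.7e-14. The counts are per gene, so reads from exons outside the deleted part are included. Rescue cells had 8.19, 9.27 and 9.94 CPM of the mouse gene. The row for the GFP-PKP4 construct held 5916, 7038 and 1902 counts in Rescue, 70, 43 and 31 counts in PKP4-KO and 0, 1 and 82 counts in WT. Libraries without the construct thus held small numbers of its reads in 5 of 6 cases.

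Some libraries stood apart, and these values should be read with the results. Total counts ranged from 13602728 to 18045380 over the 6 libraries. Within PKP4-KO, replicate 1 differed from replicates 2 and 3 by a chi-square of 139.8 and 149.9 per gene, against 19.2 between replicates 2 and 3 and 11.4 to 26.1 among the WT pairs, so no library was a copy of another. PKP4-KO replicate 1 held more of short transcripts and less of long ones. Over the shortest decile of genes by transcript length its median log2 deviation from the mean of the 6 libraries was 0.61, against -0.20 and -0.22 in replicates 2 and 3, and over the longest it was -0.45, against -0.12 and 0.00. Ribosomal protein genes took 17.6% of its counts, against 8.58% to 11.001% in the other 5. WT replicate 1 leaned the other way, with 0.38 over the longest decile, and it alone held much myelin and neuronal RNA: Mobp, a myelin gene, was at 50.2, 4.14 and 0 CPM in WT and 0 in PKP4-KO, and Nefl, a neurofilament gene, was at 23.2, 1.11 and 0 CPM in WT and 0 in PKP4-KO. These transcripts were looked up after their values were seen. Counts are therefore given with and without PKP4-KO replicate 1. The cells also differed in sex-linked transcripts. Xist, the RNA of the inactive X chromosome, was at 69.7, 24.2 and 29.5 CPM in WT and at 0.141, 0.301 and 0.14 CPM in PKP4-KO, while the Y-linked gene Eif2s3y had at most 0.264 CPM in WT and 0 in PKP4-KO but 4.59, 3.60 and 3.14 CPM in Rescue.

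The labelled cell type held in both groups. Krt5 and Krt14, the basal keratin pair, were among the most abundant transcripts, with Krt14 at 22684, 27522 and 22865 CPM in WT and 28344, 26273 and 23795 CPM in PKP4-KO, a log2 difference of 0.10 ± 0.15 that did not pass the test (adjusted p = 0.61). The summed level of 8 keratinocyte markers was 39275 to 47286 CPM in WT and 45503 to 58687 CPM in PKP4-KO. Markers of other skin cells were scarce. The 8 fibroblast markers summed to 11.4 to 13.7 CPM in WT and 4.51 to 8.33 CPM in PKP4-KO, with Lum at 0 in all 6 libraries and Dcn at most at 10 counts. The 8 melanocyte markers summed to at most 2.75 CPM, with Tyr and Tyrp1 at 0. The 8 immune markers summed to 22.3 to 32.5 CPM in WT and 8.73 to 12.5 CPM in PKP4-KO, nearly all of it Cd68, with Cd3e and Cd207 at 0. The 6 endothelial markers summed to 3.70 to 5.52 CPM over the 6 libraries, and the 7 Merkel cell markers to 27.4 to 30.2 CPM in WT and 17.0 to 42.8 CPM in PKP4-KO, with Atoh1 at 0. The 8 markers of simple or intestinal epithelium summed to 6.02 to 10.3 CPM in WT and 25.4 to 30.4 CPM in PKP4-KO, which was Cdx2 and Krt7, with Cdx1 at 0. In bulk RNA, fewer cells of a type and less RNA per cell cannot be told apart.

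Loss of PKP4 went with differences in a large share of all transcripts. Of 15114 genes tested with edgeR, 6083 (40.2%) passed adjusted p 0.05. Of these, 2975 (19.7% of genes tested) were higher and 3108 (20.6%) lower in PKP4-KO, and 1295 and 1979 of them by more than 2-fold. The median log2 fold change of all genes was 0.00. The balance between the directions depended on scaling: with library sizes alone, without TMM factors, the median shifted to -0.23 and 1796 genes were higher and 3477 lower. Without PKP4-KO replicate 1, 2586 genes (16.6%) were higher and 2383 (15.3%) lower of 15583. With an offset that removes the length trend within each library, 3055 (20.2%) were higher and 3367 (22.3%) lower. The 3 libraries of each group did not overlap for 50.6% of genes tested. The plot of level against fold change shows that called genes lay at every level.

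**Figure D1:**
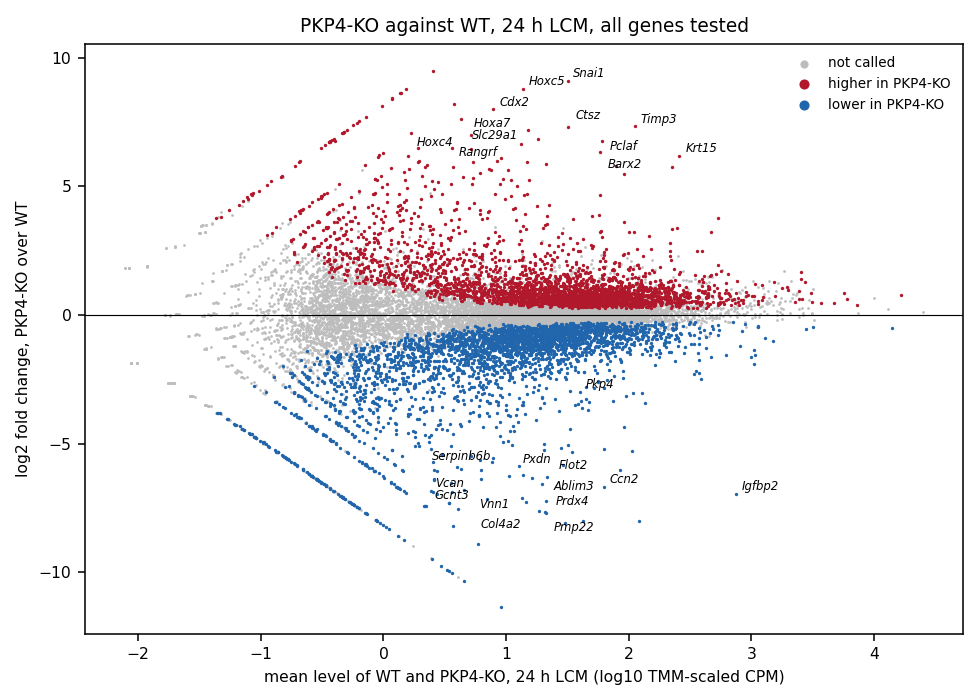
Each point is 1 of the genes tested, by its mean level in WT and PKP4-KO at 24 h LCM (x axis, log10 TMM-scaled CPM) and its log2 fold change of PKP4-KO over WT (y axis). Red points (2975) were higher and blue points (3108) lower in PKP4-KO at adjusted p 0.05, grey points did not pass, genes at 0 in all 6 libraries are not drawn, and 12 protein-coding genes per direction, those of largest change at 10 CPM or more in 1 group and with libraries that did not overlap, are named with Pkp4.

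The genes described first are the 12 protein-coding genes with the largest rise and the 12 with the largest fall among those at 10 CPM or more in 1 group whose libraries did not overlap, leaving out symbols that are only clone names. The largest rises were in transcription factors that had almost no reads in WT keratinocytes. Snai1, a repressor of epithelial cadherins best known from epithelial-mesenchymal transition, was at 0, 0 and 0.312 CPM in WT and 58.5, 56.8 and 74.8 CPM in PKP4-KO, a log2 fold change of 9.11 ± 0.72 that rests on 6 WT counts, all in replicate 3. Rescue cells had 0.091, 0.0414 and 0.981 CPM, close to WT. Cdx2, the homeobox factor that sets intestinal fate, had 3 counts in all WT libraries together and 16.3, 15.3 and 15.5 CPM in PKP4-KO, a ratio of 279 with a counting interval of 95.5 to 1354. Hoxc5, a homeobox gene of trunk position, likewise had 3 WT counts and 26.6, 27.7 and 27.5 CPM in PKP4-KO, a ratio of 521 (178 to 2528). Hoxa7 and Hoxc4 rose by 7.18 and 7.01 on the log2 scale, and Barx2, another homeobox gene, by 6.34. Barx2 and Hoxa7 were highest in PKP4-KO replicate 1, with 207, 75.0 and 64.0 CPM and 50.03, 18.6 and 21.0 CPM over replicates 1 to 3.

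The other genes among the 12 largest increases have varied roles. Krt15, a keratin of basal cells and hair follicle stem cells, rose from 6.71, 6.30 and 8.07 CPM to 673, 532 and 327 CPM, 72.6-fold. Timp3, a matrix-bound inhibitor of metalloproteinases, was at 1.64, 0.641 and 1.82 CPM in WT and 149.6, 210.3 and 312 CPM in PKP4-KO. That the libraries lie apart follows from the rule that chose these genes. Pclaf, a PCNA-binding factor of replication, rose by 6.78 on the log2 scale, the nucleoside transporter Slc29a1 by 6.85, the lysosomal protease Ctsz by 7.30 and Rangrf, a partner of Ran, by 6.66. All 12 were called without PKP4-KO replicate 1 and with the length offset too. Several values rest on few WT counts and moved by more than 1.5-fold when 1 library was left out. Without WT replicate 3, Snai1 had no WT count (fitted value 13.16), and Hoxc5, Pclaf and Rangrf had log2 values of 9.62, 7.50 and 7.49. Ctsz and Hoxa7 had 8.53 and 8.38 without WT replicate 1, Cdx2 8.89 without WT replicate 2, and Hoxa7 and Barx2 6.59 and 5.61 without PKP4-KO replicate 1. All 12 were lower in Rescue than in PKP4-KO, by 1.95 for Slc29a1 to 7.63 for Snai1 on the log2 scale, against 15.5% of all genes tested. Most were not at the WT level in Rescue. By the edgeR test of Rescue against WT, only Snai1 and Cdx2 did not pass (adjusted p = 0.32 and 0.22). The others stayed above WT, by 1.36 for Timp3 to 4.90 for Slc29a1. The comparison of Rescue with PKP4-KO uses the same PKP4-KO libraries, so it is not independent of the first. This holds for every such comparison below. Rescue cells also differed from PKP4-KO cells in Y-linked transcripts, as given above, and were selected with puromycin. The parts of these and of GFP-PKP4 cannot be told apart here.

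The largest decreases took several matrix and membrane genes to near the counting floor. Pmp22, a membrane protein of tight junctions and myelin, was at 41.7, 39.6 and 45.4 CPM in WT and 0, 0.251 and 0.281 CPM in PKP4-KO, a log2 fold change of -7.71 ± 0.51. Col4a2, a chain of basement membrane collagen IV, was at 34.6, 38.2 and 37.5 CPM and 0.282, 0.1004 and 0.187 CPM, and Pxdn, the peroxidase that cross-links collagen IV, fell by 6.35 on the log2 scale. Ccn2, a matricellular protein and a standard readout of YAP and TAZ, fell from 121, 129.9 and 121 CPM to 0.282, 1.20 and 1.97 CPM. Igfbp2, a binding protein of insulin-like growth factors, was the most abundant gene among the 12, at 1278, 1539.5 and 1634 CPM in WT and 9.30, 14.2 and 11.8 CPM in PKP4-KO. Vcan, a proteoglycan, Ablim3, an actin-binding LIM protein, and Flot2, a membrane scaffold, fell by 6.39, 6.59 and 6.30, and the values of Vnn1, Gcnt3, Prdx4 and Serpinb6b were -7.29, -7.17, -7.25 and -6.24. All 5 PKP4-KO counts of Gcnt3 lay in replicate 2, and its fitted value was -10.97 without that library and -6.53 without replicate 3. Without PKP4-KO replicate 3, the values of Vnn1 and Ccn2 were -8.25 and -7.28. In Rescue, 11 of these 12 were higher than in PKP4-KO, against 18.2% of all genes tested. Vnn1, the pantetheinase, was the exception at 0.182, 0.496 and 0.458 CPM in Rescue (adjusted p = 0.27), against 0.0705, 0.1004 and 0.328 CPM in PKP4-KO. Vcan was at 15.4, 15.97 and 11.2 CPM in Rescue, overlapping WT at 14.5, 12.01 and 10.7 CPM, whereas Igfbp2 at 148, 153 and 146 CPM stayed well under its WT level.

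Many junction genes fell. Of the desmosome genes, 0 rose and 11 fell of 15 tested, with a median log2 fold change of -1.36, against 0 and 11 with a median of -1.13 without PKP4-KO replicate 1. The desmosomal cadherins, which hold neighbouring cells together, changed most. Dsg2 was at 8.34, 6.70 and 6.40 CPM in WT and 0, 0 and 0.14 CPM in PKP4-KO, and Dsc2 at 7.55, 5.19 and 6.04 CPM and 0.493, 0.351 and 0.0468 CPM. Both are cadherins of simple and proliferating epithelium, and for both the groups did not overlap, as for 50.6% of all genes tested. Of the cadherins that dominate in epidermis, Dsg3 fell from 279, 223 and 260.2 CPM to 64.1, 98.6 and 134 CPM, a log2 fold change of -1.36 ± 0.27, Dsc3 by 1.93 and Dsg1a and Dsg1b, which are close copies whose reads the counting may split, had values of -3.90 and -2.73. Of the plaque, the plakins Ppl and Evpl, which link desmosomes to keratin, fell by 1.77 and 1.15. Dsp, the obligate plakin, was at 1476, 1226 and 1183 CPM and 607, 1079 and 1150.4 CPM (log2 -0.45, adjusted p = 0.25), and Jup, plakoglobin, at a log2 difference of -0.28 (adjusted p = 0.27), so that neither passed the test. Perp, a tetraspan protein of desmosomes, fell by 0.88.

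In the p120 and plakophilin family, other members besides Pkp4 fell. Of this family, 0 rose and 4 fell of 9 tested, with a median log2 fold change of -0.41, against 0 and 3 with a median of -0.45 without PKP4-KO replicate 1. Pkp1, the main suprabasal plakophilin, fell from 1231, 1423 and 1296 CPM to 912, 983 and 939 CPM, and Pkp2 was at 0.792, 1.57 and 0.572 CPM and 0.423, 0.401 and 0.187 CPM. Arvcf fell by 0.41, a call that did not hold without PKP4-KO replicate 1 (adjusted p = 0.14). Pkp3 and Ctnnd1, p120-catenin, had log2 differences of -0.19 and -0.30 that did not pass (adjusted p = 0.29 and 0.45). No family member rose.

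Of the 36 gene lists, tight junction genes, 19 of 26 of which could be tested, had the highest share of tested members that fell. Of these, 0 rose and 16 fell of 19 tested, with a median log2 fold change of -1.45, against 0 and 14 with a median of -1.33 without PKP4-KO replicate 1, and 19.7% and 20.6% of all genes were higher and lower. Cldn1, the claudin that seals the epidermal barrier, fell from 63.1, 62.8 and 63.5 CPM to 1.90, 3.36 and 3.28 CPM, and Cldn4 from 80.6, 90.8 and 88.1 CPM to 8.39, 8.43 and 7.77 CPM. Ocln, occludin, was at 8.82, 8.40 and 6.77 CPM and 0.282, 0.753 and 0.187 CPM, and Marveld2, tricellulin, fell by 4.44 on the log2 scale. The groups were far apart for all 4 genes. The scaffold gene Tjp1 fell by 2.01, Cgn, cingulin, by 3.21 and the polarity gene Pard6b by 1.45. The calls of F11r and Patj, which fell by 0.30 and 0.48, did not hold without PKP4-KO replicate 1. In Rescue, all 19 were higher than in PKP4-KO, against 18.2% of all genes tested. Cldn4 was at 96.3, 108 and 120.4 CPM there and Cldn1 at 26.4, 27.3 and 24.9 CPM, which is between PKP4-KO and WT.

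Of the adherens junction genes, 1 rose and 10 fell of 17 tested, with a median log2 fold change of -0.64, against 2 and 8 with a median of -0.56 without PKP4-KO replicate 1, and 0 and 7 without both first libraries. Cdh1, E-cadherin, was at 88.6, 97.2 and 106 CPM in WT, 41.5, 61.4 and 69.7 CPM in PKP4-KO and 108, 112 and 83.9 CPM in Rescue. Its log2 fold change was -0.76 ± 0.18, and the WT and PKP4-KO libraries did not overlap, as for 50.6% of all genes tested. Ctnna1, α-catenin, which couples cadherins to actin, fell by 0.73, and Ctnnb1, β-catenin, did not pass at 477, 457 and 459 CPM and 255, 465 and 435 CPM (adjusted p = 0.45). The nectins, calcium-independent adhesion proteins, fell: Nectin4 from 33.5, 42.3 and 39.9 CPM to 10.9, 6.12 and 7.30 CPM, Nectin2 by 1.55 and Nectin1 by 0.48. Plekha7, the p120 partner that anchors microtubules at the junction, fell by 0.77, and Camsap3, which binds microtubule minus ends, was the one member that rose (0.46). Of 7 gap junction genes, 2 rose and 3 fell, and 2 and 1 without PKP4-KO replicate 1. Gjb2, connexin 26, rose from 9.72, 10.8 and 10.8 CPM to 29.0, 20.4 and 20.04 CPM and Gja1, connexin 43, by 0.38, while Gjb5 fell by 1.09. Gjb6 had no count in PKP4-KO and 0.845, 0.117 and 0 CPM in WT, a call that did not hold without PKP4-KO replicate 1 (adjusted p = 0.06).

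Promoters of 2 of the genes that fell are shown for the short motifs that factors of this comparison are known to bind. The E-box CAGGTG is read by Snail factors. The motif GGAATG is read by TEAD, the DNA-binding partner of YAP and TAZ. Both were searched on both strands, and one motif cannot hold the other. The sequences span the start site, from RefSeq on GRCm38.p6, and capitals mark the motif, which in Ccn1 lies on the other strand. Of 32851 promoters of this length, 20.2% held the E-box and 14.7% the TEAD motif on either strand. Among tight junction genes that fell, 11 of 20 promoters (of 13 of 16 genes with an entry) held the E-box. These are promoters of 8 of the 13 genes, Ocln among them. Among the other tight junction genes tested, 3 of 4 promoters, of 2 of 2 genes, held the E-box. Among adherens junction genes that fell, 1 of 5 promoters held it. Cldn1, with an entry at hand, did not. Among YAP and TAZ pathway genes that fell, 8 of 11 promoters held the TEAD motif, which are those of 6 of the 8 genes with an entry, Ccn1 among them, and of the other genes of the list 4 of 10 promoters did. Promoters of the same gene can overlap, as those of Ocln do, and were counted separately. A match describes the letters only.
Ocln promoter, chr13:100552669-100552968, minus strand: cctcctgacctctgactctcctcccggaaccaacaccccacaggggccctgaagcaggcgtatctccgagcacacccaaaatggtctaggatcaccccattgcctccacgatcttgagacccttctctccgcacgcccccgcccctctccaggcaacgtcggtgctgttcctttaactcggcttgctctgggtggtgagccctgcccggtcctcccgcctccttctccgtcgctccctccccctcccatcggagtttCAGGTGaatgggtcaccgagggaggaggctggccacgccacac
Ccn1 promoter, chr3:145649936-145650235, minus strand: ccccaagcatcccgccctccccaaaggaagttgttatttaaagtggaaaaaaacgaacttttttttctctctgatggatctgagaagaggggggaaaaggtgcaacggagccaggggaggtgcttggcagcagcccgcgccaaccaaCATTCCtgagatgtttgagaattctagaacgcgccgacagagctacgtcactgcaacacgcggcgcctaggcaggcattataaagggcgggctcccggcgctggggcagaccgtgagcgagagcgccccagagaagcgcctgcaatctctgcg

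**Figure D2:**
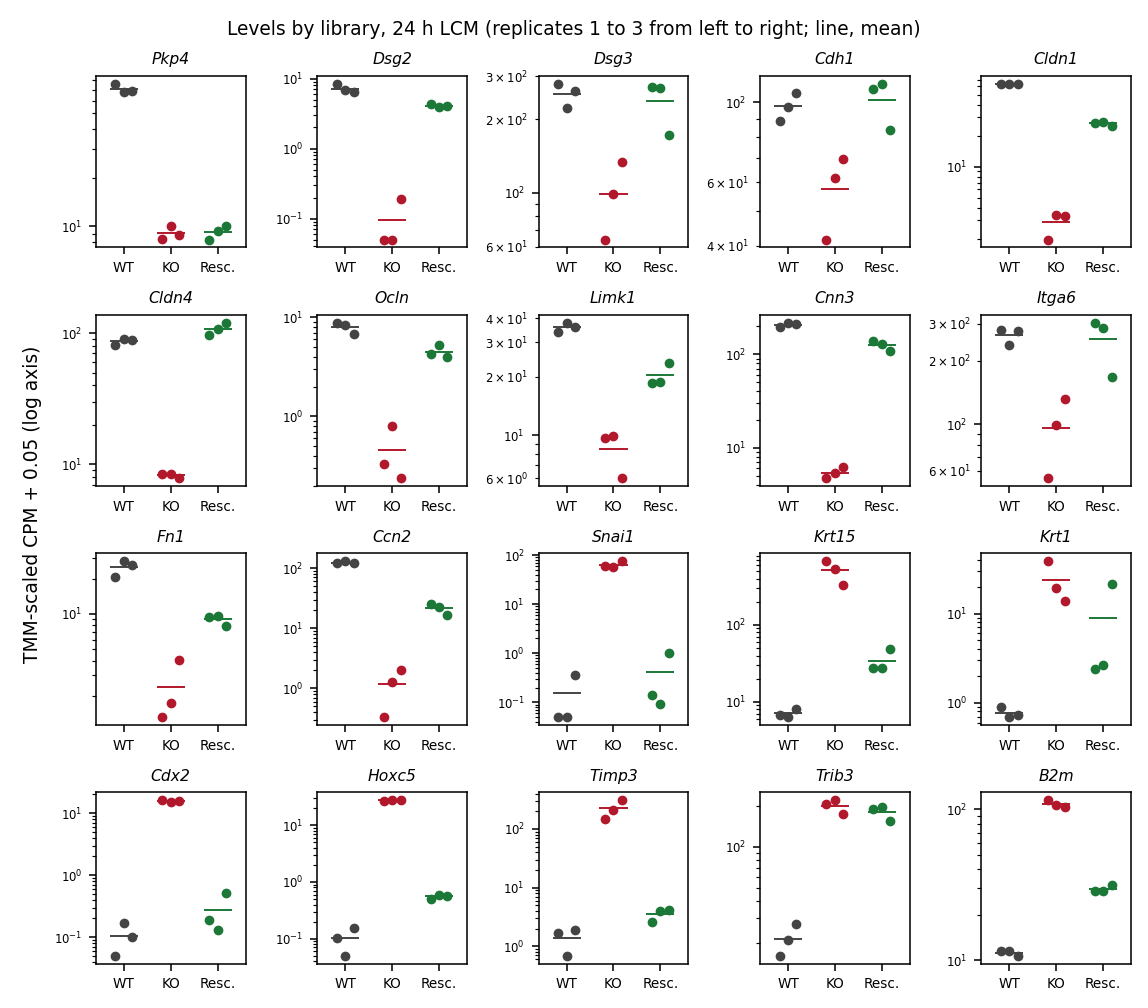
Each panel is 1 gene at 24 h LCM, with 1 point per library (WT, PKP4-KO and Rescue, replicates 1 to 3 from left to right), the line at the group mean, and the y axis in TMM-scaled CPM plus 0.05 on a log scale that differs between panels. The junction genes Dsg2, Cldn1, Cldn4 and Ocln are low in all 3 PKP4-KO libraries, Snai1, Krt15, Cdx2, Hoxc5 and Timp3 are high there, and Pkp4 is low in PKP4-KO and Rescue.

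Regulators and effectors of RhoA-family GTPases, the pathway PKP4 is best known for, moved in both directions. Of this list, 8 rose and 16 fell of 40 tested, with a median log2 fold change of -0.66, against 7 and 13 with a median of -0.45 without PKP4-KO replicate 1, and 5 and 13 without WT replicate 1. RhoA itself (Rhoa) was at 299, 349 and 329 CPM and 380.1, 418 and 382 CPM, a rise of 0.27 ± 0.10 on the log2 scale that did not hold without PKP4-KO replicate 1 (adjusted p = 0.054). Rac1 rose by 0.38. Among exchange factors, which switch these GTPases on, Arhgef2 rose from 28.2, 28.9 and 30.2 CPM to 46.1, 54.4 and 41.6 CPM, Net1 by 0.81 and Arhgef1 by 0.41, and Arhgef11 fell by 0.90. Among GTPase-activating proteins, which switch them off, Arhgap29 fell from 16.2, 9.91 and 13.6 CPM to 1.48, 2.31 and 3.93 CPM, and Dlc1, Stard13, Stard8, Arhgap21 and Arhgap23 had log2 fold changes from -4.06 to -0.94. Arhgap24 rose by 1.41. Of the exchange factors called, 4 rose, Vav3 among them, and 1 fell, and of the GTPase-activating proteins 1 rose and 6 fell. Of all genes tested, 19.7% rose and 20.6% fell, and a difference between the subsets was not tested. Arhgef1 and Arhgap21 are in these counts, and their calls depended on single libraries, as given below. Rnd1, an atypical GTPase that opposes RhoA, rose from 1.32, 2.27 and 1.93 CPM to 20.7, 13.1 and 13.2 CPM, and Rnd3 fell by 1.07. Of the effectors, the formin Diaph1 fell by 0.74 and the kinase Pkn2 by 0.92. Rock1 was at 12.5, 5.77 and 6.04 CPM in WT, highest in replicate 1, and 2.61, 2.76 and 3.79 CPM in PKP4-KO, a fall of 1.40 that did not hold without PKP4-KO replicate 1 (adjusted p = 0.11) or without WT replicate 1 (0.23). The calls of Arhgap21 and Pkn2 were likewise lost without either first library, those of Rac1 and Arhgef1 without WT replicate 1 (adjusted p = 0.11 and 0.11).

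Downstream of ROCK, more genes of the actomyosin list fell than rose, and most did not pass. Of these genes, 1 rose and 12 fell of 29 tested, with a median log2 fold change of -0.39, against 1 and 9 with a median of -0.27 without PKP4-KO replicate 1. Limk1, the kinase that inactivates cofilin, fell from 33.95, 37.9 and 35.8 CPM to 9.58, 9.84 and 5.95 CPM, a log2 fold change of -2.09 ± 0.21. The cofilin phosphatases Ssh1 and Ssh3 fell as well, by 0.74 and 1.13. Calponins, which bind actin filaments, fell strongly: Cnn3 was at 195, 218 and 211 CPM and 4.65, 5.32 and 6.13 CPM, and Cnn2 fell by 3.70. Acta2, smooth muscle actin, was at 21.7, 27.2 and 26.96 CPM and 0.634, 0.351 and 0.328 CPM, and Tpm4, a tropomyosin of stress fibres, fell by 1.01. Tagln2 was the one member that rose (0.90). Actb, β-actin, was at 1295, 1918 and 1905 CPM and 4863, 2036 and 1848 CPM, high in PKP4-KO replicate 1 alone, and did not pass (adjusted p = 0.32). Of 18 SRF target genes, 6 rose and 6 fell, and 5 and 4 without PKP4-KO replicate 1. Cytoskeletal members (Acta2, Cnn2, Fhl2, Vcl, Actg1, Flna) made up the 6 that fell, and Srf itself (0.91) and the immediate-early genes Junb (1.02), Egr1 and Fosb (1.46) were among those that rose. The calls of Actg1, Flna and Fosb did not hold without PKP4-KO replicate 1 (adjusted p = 0.094, 0.065 and 0.072).

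Genes of the YAP and TAZ pathway, which responds to tension and cell spreading, fell where they passed the test. Of these, 0 rose and 11 fell of 20 tested, with a median log2 fold change of -0.61, against 0 and 11 with a median of -0.57 without PKP4-KO replicate 1. With the length offset, 2 were higher and 9 lower. Besides Ccn2, Ccn1 fell from 15.3, 18.1 and 17.2 CPM to 2.75, 7.93 and 9.22 CPM, Amotl2 from 62.8, 62.9 and 60.4 CPM to 10.4, 21.8 and 30.2 CPM and F3, tissue factor, by 3.68 on the log2 scale. Each of these 4 is a standard target gene, and for each the WT and PKP4-KO libraries did not overlap, as for 50.6% of all genes tested. For Ccn2 this follows from the rule that chose it. The transcription factors Tead1 and Tead3 fell by 1.37 and 0.58, and Wwtr1, the gene for TAZ, by 0.71.

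Of matrix adhesion genes, more fell than rose. Of 9 integrin genes tested, none rose and 6 fell, 5 without PKP4-KO replicate 1 and 3 without both first libraries. Itga6, the laminin-binding subunit of hemidesmosomes, was at 281, 237 and 276 CPM in WT, 55.2, 99.01 and 132 CPM in PKP4-KO and 304, 286 and 168 CPM in Rescue. Itgb6 fell by 1.91, Itgb5 fell by 1.74 and Itgav by 1.41. Itgb1 fell by 0.65, a call that did not hold without PKP4-KO replicate 1 (adjusted p = 0.16). Of the hemidesmosome genes, 1 rose and 6 fell of 10 tested, with a median log2 fold change of -0.55, against 1 and 5 with a median of -0.46 without PKP4-KO replicate 1. Lama3, a chain of laminin-332, fell by 1.53 and Col7a1, the anchoring fibril collagen, fell by 2.21, and Plec, plectin, rose by 0.58. Of the focal adhesion adaptors, 5 rose and 10 fell of 27 tested, with a median log2 fold change of -0.20, against 5 and 7 with a median of -0.21 without PKP4-KO replicate 1, and 3 and 9 without WT replicate 1 and 2 and 7 without both first libraries. Fermt2, kindlin-2, was at 3.49, 2.27 and 2.97 CPM and 0.0705, 0 and 0 CPM, Bcar1 fell by 1.12 and Tns3 by 1.46, whereas talins Tln1 and Tln2 rose by 0.76 and 1.74.

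Of the collagens and other matrix genes, most fell. Of these, 2 rose and 14 fell of 24 tested, with a median log2 fold change of -1.87, against 2 and 12 with a median of -1.71 without PKP4-KO replicate 1. With the 3 members that had no count in 1 group set to a floor of 3 counts per library, the median was -1.21. Col4a1 fell from 10.2, 11.5 and 14.5 CPM to 0.211, 0.301 and 0.187 CPM along with Col4a2. Fn1, fibronectin, was at 20.6, 28.1 and 26.1 CPM and 1.27, 1.71 and 4.03 CPM, Sparc at 541, 676 and 628 CPM and 114, 121 and 149 CPM, and Thbs1 fell by 2.07. Tnc, tenascin-C, and Col16a1 were the members that rose, by 2.38 and 2.88. Of the proteases and inhibitors, 4 rose and 7 fell of 16 tested, with a median log2 fold change of -0.68, against 4 and 8 with a median of -0.68 without PKP4-KO replicate 1. The inhibitors moved apart: Timp2 fell from 217, 258 and 270.0 CPM to 15.7, 23.4 and 30.8 CPM and Timp1 by 0.89, while Timp3 rose as given above. Serpine2, a serine protease inhibitor, rose by 2.47.

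Apart from Snai1 and Prrx1, no gene of the mesenchymal list rose. Of these, 2 rose and 8 fell of 15 tested, with a median log2 fold change of -1.18, against 2 and 7 with a median of -1.02 without PKP4-KO replicate 1. Vim, vimentin, was at 3.06, 1.17 and 1.82 CPM in WT and 0.141, 0.151 and 0.281 CPM in PKP4-KO. The related factors Snai2, a Snail family member of basal keratinocytes, and Twist1 fell from 53.9, 45.4 and 51.8 CPM to 18.2, 24.8 and 23.7 CPM and, for Twist1, fell by 1.74. Prrx1, another mesenchymal factor, was the second member that rose, from 0.158, 0 and 0.052 CPM to 1.13, 3.56 and 4.12 CPM.

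Basal and stress keratins moved in both directions. Krt5 rose from 10536, 13398 and 12383 CPM to 25414, 20047 and 17168 CPM, 0.79 ± 0.18 on the log2 scale, and Krt17 by 0.39, a call that did not hold without PKP4-KO replicate 1 (adjusted p = 0.15). The stress keratins Krt6a, Krt6b and Krt16 fell by 0.49, 1.03 and 0.54. Krt6a and Krt6b are near copies, and reads may be shared between them. Of 6 simple-epithelium keratins, 1 rose and 4 fell, with and without PKP4-KO replicate 1. Krt19 was at 0.898, 2.099 and 1.56 CPM and 0, 0.0502 and 0 CPM and Krt8 at 0.528, 2.45 and 1.09 CPM and 0.0705, 0.151 and 0 CPM, while Krt7 rose to 12.5, 9.28 and 13.2 CPM from 3.70, 4.14 and 7.29 CPM.

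Differentiation genes moved in both directions. Of the suprabasal and cornified envelope genes, 4 rose and 13 fell of 28 tested, with a median log2 fold change of -0.83, against 3 and 14 with a median of -1.01 without PKP4-KO replicate 1, and 1 and 11 without both first libraries. Krt1 and Krt10, the keratins of early differentiation, rose: Krt1 was at 0.845, 0.641 and 0.677 CPM in WT and 38.5, 19.2 and 13.8 CPM in PKP4-KO, highest in replicate 1, and Krt10 at 8.34, 9.50 and 10.98 CPM and 41.7, 25.6 and 22.0 CPM. Among the members that fell, Tgm1, the transglutaminase that cross-links the envelope, was at 29.3, 35.0 and 34.3 CPM and 13.7, 9.23 and 8.43 CPM, Ivl, involucrin, fell by 1.32, Lor, loricrin, fell by 1.57 and Cdsn, corneodesmosin, by 1.56. Sprr2d fell by 2.29 and Sprr2a1 rose by 1.54, members of a cluster of near copies. The call of Calm4, which was at 325, 125 and 85.9 CPM in PKP4-KO, rested on replicate 1 (adjusted p = 0.52 without it). In Rescue, Tgm1 was at 90.9, 102 and 104 CPM and Krt1 at 2.32, 2.61 and 21.4 CPM, the latter high in 1 library. Of the kallikreins and inhibitors, 3 rose and 4 fell of 15 tested, with a median log2 fold change of 0.39, against 3 and 3 with a median of -0.00 without PKP4-KO replicate 1. Klk8 rose from 16.6, 26.5 and 19.2 CPM to 149, 81.5 and 82.9 CPM and Klk14 and Klk7, proteases of desquamation, fell by 3.58 and 2.08.

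Factors that set epithelial fate moved in both directions. Of these, 7 rose and 11 fell of 28 tested, with a median log2 fold change of -0.02, against 8 and 10 with a median of -0.14 without PKP4-KO replicate 1. Zfp750, Grhl1, Grhl3, Ovol1 and Klf4, which drive late differentiation, fell by 0.87 to 2.38. Zfp750 was at 37.9, 39.5 and 32.7 CPM and 6.41, 6.98 and 7.68 CPM. Tfap2c and Dlx3 rose by 3.43 and 3.99 from low levels. Trp63, the master factor of stratified epithelium, was at 139, 111 and 125 CPM and 147, 225 and 217 CPM, which did not pass with all libraries (adjusted p = 0.059) and passed without PKP4-KO replicate 1 (log2 0.82, adjusted p = 0.034).

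**Figure D3:**
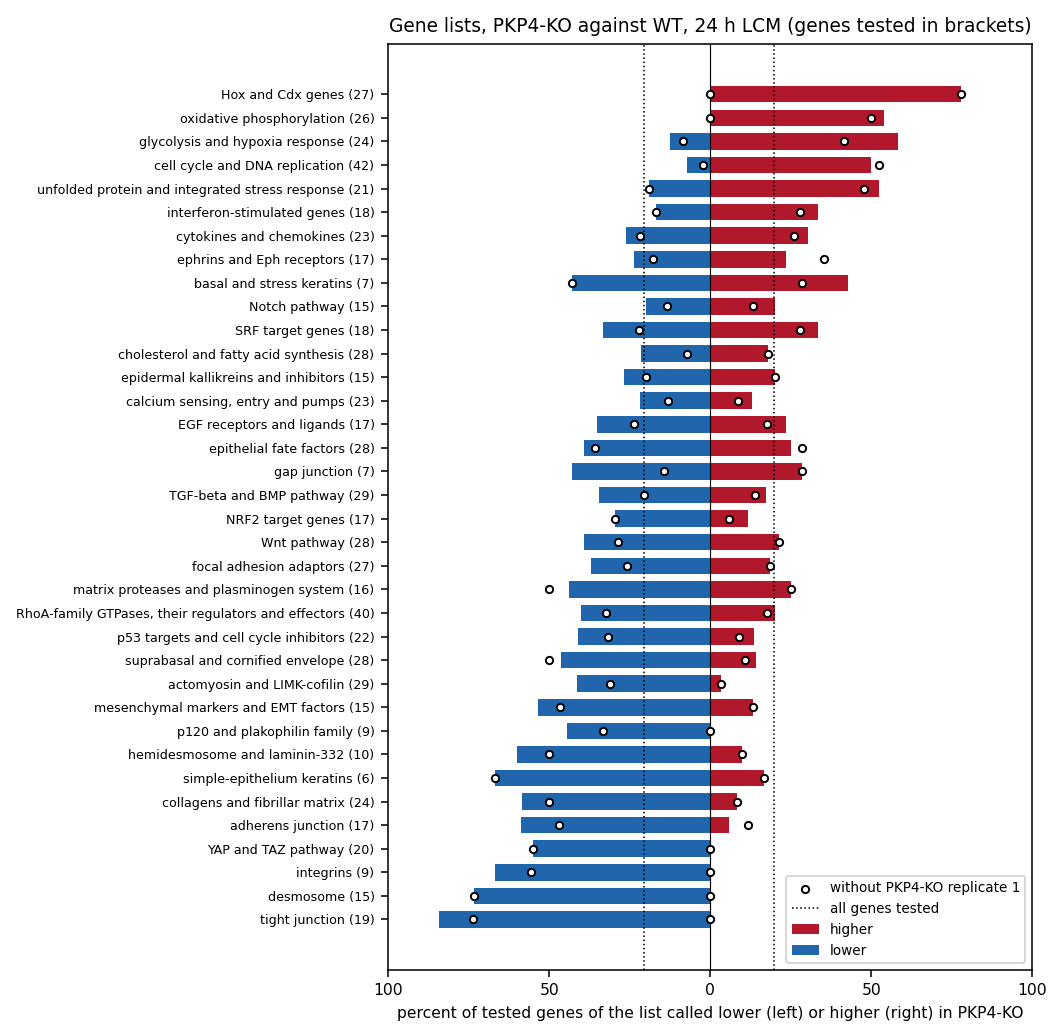
Bars give the percent of tested genes of each list (y axis, number tested in brackets) called lower (left, blue) or higher (right, red) in PKP4-KO at 24 h LCM, and open circles the same without PKP4-KO replicate 1. Dotted lines mark all genes tested (20.6% lower and 19.7% higher), and tight junction (16 of 19) and desmosome (11 of 15) genes lie far to the left and Hox and Cdx genes (21 of 27) far to the right.

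Among tested members, homeobox genes of body position were the list with the highest share of increases. The filter on low counts keeps a gene with almost no WT reads where another group holds reads, so this share depends on the filter. Of the Hox and Cdx genes, which record where along the body a cell comes from, 21 rose and 0 fell of 27 tested, with a median log2 fold change of 3.42, against 21 and 0 with a median of 3.81 without PKP4-KO replicate 1. With the length offset, 19 were higher and 1 lower, Hoxb8. Another 15 had too few reads to test. All 4 clusters took part. Of the HoxC cluster, Hoxc9 rose from 0.528, 0.35 and 0.625 CPM to 8.03, 10.6 and 12.8 CPM besides Hoxc4 and Hoxc5, and of the HoxB cluster Hoxb7 from 0.634, 0.641 and 1.20 CPM to 17.2, 21.0 and 18.4 CPM and Hoxb2 by 5.64. Hoxa9 rose by 5.19 and Hoxd9 by 4.64. In these genes every PKP4-KO library exceeded every WT library by a wide margin. Over all genes tested, the libraries did not overlap, in either direction, for 50.6%. Hoxb9 was expressed in both groups, with a log2 difference of 0.32 that did not pass. In Rescue, 17 of the 27 were lower than in PKP4-KO and 1 was higher, against 15.5% and 18.2% of all genes tested. Hoxb7 was at 13.7, 11.5 and 12.1 CPM and Hoxb2 at 4.96, 6.58 and 3.47 CPM in Rescue, above WT, and Hoxc9 at 0.546, 1.12 and 1.11 CPM.

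Growth factor genes moved in both directions. The shares of the Notch, ephrin, cholesterol and kallikrein lists that rose and fell were near the 19.7% and 20.6% of all genes. Of the EGF receptors and ligands, 4 rose and 6 fell of 17 tested, with a median log2 fold change of -0.30, against 3 and 4 with a median of -0.19 without PKP4-KO replicate 1. The ligands Areg and Epgn rose, Areg from 3.01, 3.61 and 4.94 CPM to 13.5, 20.7 and 16.9 CPM and Epgn by 1.42, and Tgfa fell from 49.8, 49.6 and 55.6 CPM to 16.8, 25.9 and 23.6 CPM and Hbegf by 0.80. Dusp6, a feedback phosphatase of ERK, rose by 2.04. The receptor Egfr did not pass (-0.30, adjusted p = 0.2). Of the Notch pathway, 3 rose and 3 fell of 15 tested, with a median log2 fold change of -0.29, against 2 and 2 with a median of -0.12 without PKP4-KO replicate 1, and 1 and 3 without WT replicate 1. Notch3 fell from 11.04, 10.6 and 12.2 CPM to 0.493, 0.803 and 0.843 CPM, and the ligands Dll1 and Jag2 rose by 0.73 and 0.60, the former not without WT replicate 1 (adjusted p = 0.12). Of the Wnt pathway, 6 rose and 11 fell of 28 tested, with a median log2 fold change of -0.39, against 6 and 8 with a median of -0.21 without PKP4-KO replicate 1. Wnt10b had no count in WT and 1.20, 0.853 and 0.983 CPM in PKP4-KO, Wnt7a and Wnt7b fell, with values of -1.65 and -1.38, and Dkk3, a member of the Dickkopf family, fell from 23.9, 29.4 and 28.4 CPM to 0.352, 0.201 and 0.515 CPM. Axin2, a target gene of the pathway, fell by 2.24.

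Of the TGF-beta and BMP pathway, 5 rose and 10 fell of 29 tested, with a median log2 fold change of -0.30, against 4 and 6 with a median of -0.02 without PKP4-KO replicate 1. Inhbb, an activin subunit, fell from 18.4, 20.9 and 19.2 CPM to 1.69, 1.05 and 1.26 CPM, the BMP inhibitor Nog fell by 3.34, the receptor Acvr1 fell by 1.81 and the target gene Id2 from 102, 115 and 123 CPM to 12.6, 25.9 and 21.2 CPM. Smad1 rose by 1.27. The calls of Tgfbr1, Skil, Smad2, Smad3 and Id1 did not hold without PKP4-KO replicate 1. Of ephrins and Eph receptors, 4 rose and 4 fell of 17 tested, with a median log2 fold change of -0.04, against 6 and 3 with a median of -0.07 without PKP4-KO replicate 1. Efna3 fell from 57.8, 63.3 and 62.5 CPM to 23.6, 22.0 and 20.8 CPM and Efnb2 by 1.89, and Efna2 and Ephb1 rose by 2.36 and 2.73. Of the calcium list, 3 rose and 5 fell of 23 tested, with a median log2 fold change of -0.13, against 2 and 3 with a median of -0.12 without PKP4-KO replicate 1. The share that rose was below the 19.7% of all genes, and the share that fell was near their 20.6%. Without PKP4-KO replicate 1 both shares were below those of all genes, 16.6% and 15.3%. Orai1, the channel of store-operated calcium entry, fell from 17.3, 21.2 and 22.5 CPM to 10.7, 9.84 and 11.9 CPM and Trpv4 rose from 4.86, 5.60 and 5.72 CPM to 14.6, 14.3 and 14.1 CPM. S100a8 was at 96.3, 12.1 and 8.29 CPM in PKP4-KO, and its call rested on replicate 1 (adjusted p = 0.6 without it).

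Far more cell cycle genes rose than fell. Of these, 21 rose and 3 fell of 42 tested, with a median log2 fold change of 0.40, against 22 and 1 with a median of 0.44 without PKP4-KO replicate 1, and 18 and 0 without WT replicate 1 and 17 and 0 without both first libraries. Cdc20, an activator of the anaphase complex, rose from 94.4, 114 and 119.6 CPM to 197, 274 and 259.8 CPM, Plk1 by 1.05, the replication helicase genes Mcm2 and Mcm3 by 0.85 and 0.87 and Ccnd3, cyclin D3, by 1.15. E2f2 rose by 2.04 from a low level. These rises were under 2-fold for most members. Ccne2, Rrm1 and Ccnd2 fell, and the calls of Ccne2 and Rrm1 did not hold without PKP4-KO replicate 1 (adjusted p = 0.08 and 0.19), nor that of Ccnd2 without WT replicate 1 (0.13). Of the p53 targets and inhibitors, 3 rose and 9 fell of 22 tested, with a median log2 fold change of 0.11, against 2 and 7 with a median of 0.11 without PKP4-KO replicate 1. Pmaip1, Sesn1, Fas and Ccng1 fell by 1.09 to 1.51, while Trp53 itself rose by 0.71, a call lost without PKP4-KO replicate 1 (adjusted p = 0.083), and the inhibitors Cdkn2c and Cdkn1c by 1.95 and 2.67. In Rescue, 31 of the 42 cell cycle genes were lower than in PKP4-KO, against 15.5% of all genes tested. Cdc20 was at 129, 140.5 and 145 CPM and E2f2 at 2.37, 1.90 and 3.07 CPM in Rescue.

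Many metabolic genes rose, and these lists are where PKP4-KO replicate 1 carried much weight. Of the glycolysis and hypoxia genes, 14 rose and 3 fell of 24 tested, with a median log2 fold change of 0.64, against 10 and 2 with a median of 0.64 without PKP4-KO replicate 1, and 9 and 1 without both first libraries. Pkm, pyruvate kinase, rose from 1489, 1749.5 and 1619 CPM to 4028, 4001 and 3659.6 CPM, Eno1 by 1.29, Ldha to 2974, 2579.7 and 2385 CPM from 1114, 1396 and 1183 CPM and Pfkp by 1.81, and for these 4 the change without replicate 1 was 1.24, 1.34, 1.01 and 1.89. Gapdh was at 45.7, 48.9 and 37.2 CPM and 606, 49.0 and 117 CPM, so that its call rested on replicate 1 (adjusted p = 0.52 without it). Gapdh and several glycolytic genes have many near-identical pseudogenes that can take reads. Of the oxidative phosphorylation genes, 14 rose and 0 fell of 26 tested, with a median log2 fold change of 0.70, against 13 and 0 with a median of 0.55 without PKP4-KO replicate 1, and 8 and 0 without both first libraries. Atp5b, a subunit of ATP synthase, rose from 971, 1259.9 and 1224 CPM to 2601, 2422 and 2205 CPM and Sdhb, a subunit of complex II, by 1.36. Of 77 cytosolic ribosomal protein genes, 11 rose and none fell, with a median of 0.74, against 6 and a median of 0.10 without replicate 1. Both counts are smaller shares than those of all genes that rose, 19.7% and, without replicate 1, 16.6%. The genes of these 2 last groups are short, with median transcript lengths of 2170 and 1781 bases against 3825 over all genes tested, and the part of the length trend in them was not tested beyond the offset, under which 13 oxidative phosphorylation genes and 9 ribosomal protein genes rose and 1 of each fell. Reads on the 37 mitochondrial genes were at 0 in all libraries.

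Stress genes moved in both directions. Of these, 11 rose and 4 fell of 21 tested, with a median log2 fold change of 0.49, against 10 and 4 with a median of 0.55 without PKP4-KO replicate 1, and 9 and 2 without both first libraries. Among those that rose were genes known from the integrated stress response: Trib3 rose from 15.9, 20.8 and 27.3 CPM to 205, 220.0 and 174 CPM, the factors Atf4 and Ddit3 by 1.56 and 1.69 and the amino acid enzymes Asns and Psat1 by 0.99 and 0.80. The chaperones of the endoplasmic reticulum Hspa5 and Hsp90b1 fell by 0.74 and 0.84, the latter not without WT replicate 1 (adjusted p = 0.059), and Xbp1 by 0.73. Trib3 was at 188, 196 and 154 CPM in Rescue, which did not pass the test against PKP4-KO (adjusted p = 0.58). Of the NRF2 target genes, 2 rose and 5 fell of 17 tested, with a median log2 fold change of 0.01, against 1 and 5 with a median of -0.06 without PKP4-KO replicate 1. Me1 fell from 39.5, 38.5 and 38.8 CPM to 5.21, 8.88 and 6.93 CPM, Gsta1 by 1.75 and Nqo1 by 0.67, and Prdx1 rose by 0.76.

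Of the interferon-stimulated genes, 6 rose and 3 fell of 18 tested, with a median log2 fold change of -0.30, against 5 and 3 with a median of -0.33 without PKP4-KO replicate 1. Among those that rose, B2m, the light chain of MHC class I, rose from 11.5, 11.4 and 10.6 CPM to 115, 107 and 103 CPM and H2-D1, a heavy chain, from 11.6, 14.4 and 15.7 CPM to 77.1, 91.0 and 98.6 CPM, and H2-K1 by 2.20. H2-D1 and H2-K1 are polymorphic and alike in sequence, and reads may be shared. Tap1, which loads MHC class I, fell by 1.01 and Ddx58, the sensor RIG-I, by 2.01. Of the cytokines and chemokines, 7 rose and 6 fell of 23 tested, with a median log2 fold change of -0.00, against 6 and 5 with a median of 0.11 without PKP4-KO replicate 1. Vegfa rose from 5.60, 6.41 and 9.58 CPM to 14.9, 30.4 and 27.1 CPM, Cxcl1 by 1.02 and Ccl20 by 5.69 from almost no counts, while Il33, an alarmin, fell from 20.5, 17.7 and 15.6 CPM to 3.31, 3.61 and 2.34 CPM, Cxcl5 by 1.19 and Il1a by 1.09. Of the cholesterol and fatty acid genes, 5 rose and 6 fell of 28 tested, with a median log2 fold change of -0.01, against 5 and 2 with a median of 0.10 without PKP4-KO replicate 1, and 3 and 5 without WT replicate 1. Elovl4, which makes very long fatty acids for barrier lipids, fell from 51.3, 46.3 and 47.8 CPM to 13.2, 16.8 and 15.96 CPM, and Scd1 was at 8.08, 2.099 and 0.364 CPM in WT and 28.3, 36.5 and 45.5 CPM in PKP4-KO.

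A test of whether the PKP4-KO effect differed between 24 h in LCM and 24 h in HCM called 607 genes (4.02%), 421 (2.79%) with a higher and 186 (1.23%) with a lower log2 effect in LCM. Without TMM factors the median difference over all genes was -0.28, and 158 were higher and 208 lower. Single libraries moved these counts: 275 were higher without WT 24 h LCM replicate 1, and 100 to 121 were lower without any 1 of PKP4-KO 24 h HCM replicate 2 (100), PKP4-KO 24 h LCM replicate 1, WT 24 h HCM replicate 2 and WT 24 h LCM replicate 3 (121). The suprabasal and cornified envelope list stood out with 15 of 28 higher and 0 lower. Cnfn, cornifelin, was at 81.7, 165 and 65.7 CPM in WT and 19.5, 15.7 and 35.7 CPM in PKP4-KO in HCM, against 14.6, 17.5 and 11.3 CPM and 76.5, 27.3 and 27.2 CPM in LCM, so that the log2 fold change was -2.14 in HCM and 1.59 in LCM, where it rested on PKP4-KO replicate 1 (adjusted p = 0.17 without it). WT cells thus had more Cnfn than PKP4-KO cells in HCM and less in LCM. The claudin Cldn23 reached 37.5, 23.2 and 34.7 CPM in WT in HCM, 0.652, 0.335 and 0.221 CPM in PKP4-KO, and was at 0.528, 0.875 and 1.30 CPM in WT in LCM. The water channel Aqp5 and Prr15l gave the same picture, with differences of 5.35 ± 0.82 and 4.60 ± 1.23. Areg was higher in PKP4-KO in LCM (2.14) and lower in HCM (-1.75). Among cholesterol and fatty acid genes, 9 of 28 were higher by this test, among tight junction genes 4 of 19, and among cell cycle genes 11 of 42 were lower. For the cell cycle genes the rise in PKP4-KO was larger in HCM, as for E2f2, with 2.04 in LCM and 3.85 in HCM. No desmosome gene differed by this test, and 1 of 27 Hox and Cdx genes did.

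Between 24 and 72 h in LCM the PKP4-KO effect differed for 794 genes (5.25%), 275 (1.82%) with a higher and 519 (3.43%) with a lower log2 effect at 24 h. The 275 became 152, 161, 164 and 166 without WT 24 h replicate 1, PKP4-KO 24 h replicate 3, WT 72 h replicate 2 and PKP4-KO 24 h replicate 2. Of the glycolysis and hypoxia list, 19 of 24 were lower at 24 h, and none was higher. Ndufa4l2, a hypoxia-induced relative of the oxidative phosphorylation gene Ndufa4, was at 2.04, 0.502 and 0.843 CPM in PKP4-KO at 24 h. At 72 h it was at 138, 244 and 81.4 CPM in PKP4-KO and 0.852, 0.475 and 0.545 CPM in WT. Myo5b, a myosin of vesicle transport, had a log2 fold change of -3.68 at 24 h and 0.89 at 72 h. Of the cytokines and chemokines, 10 of 23 were lower at 24 h, of the cornified envelope genes 13 of 28, of the kallikreins 6 of 15 and of the tight junction genes 6 of 19. In the other direction, Timp3 and Slc29a1 were less raised at 72 h, with 4.80 and 4.11 against 7.34 and 6.85 at 24 h, and Txnip, a brake on glucose uptake, was lower at 24 h (-2.78) and more so at 72 h (-5.41). No Hox or Cdx gene differed by this test.

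**Figure D4:**
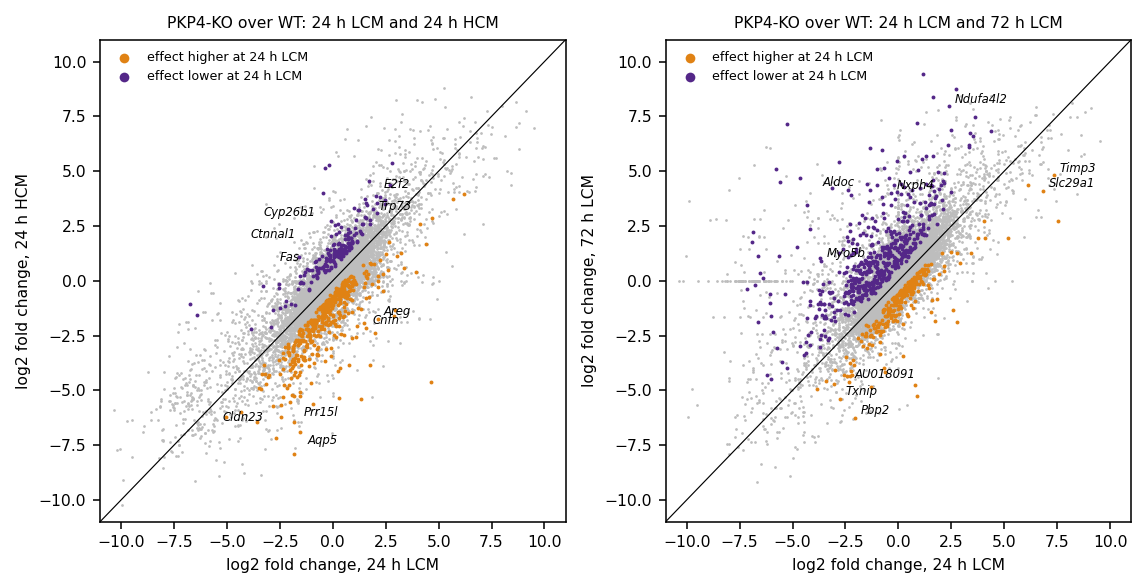
Each point is 1 gene, with the log2 fold change of PKP4-KO over WT at 24 h LCM on the x axis and at 24 h HCM (left) or 72 h LCM (right) on the y axis, and the line marks equal effects. Orange and purple points passed the test of the difference at adjusted p 0.05 (421 and 186 on the left, 275 and 519 on the right), most points lie near the line, and the named genes are the protein-coding genes with the 5 largest differences in each direction at 10 CPM or more in 1 group, as far as they are reported here.

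In Rescue against PKP4-KO at 24 h LCM, 5089 genes (33.7%) were called, 2748 (18.2%) higher and 2341 (15.5%) lower in Rescue. Rescue and PKP4-KO libraries differed in Y-linked transcripts as given above, and Rescue replicate 3 held fewer GFP-PKP4 counts and had Gapdh at 44.3, 48.8 and 219.6 CPM over replicates 1 to 3. Of the junction lists, 11 of 15 desmosome, 8 of 17 adherens junction and 19 of 19 tight junction genes were higher in Rescue. Dsg3 was at 271, 267 and 172 CPM, which overlaps WT, and Dsg2 at 4.32, 3.85 and 3.99 CPM, below it. Of the RhoA-family list 16 of 40 were higher and 4 lower, with Limk1 at 18.5, 18.7 and 23.6 CPM and Cnn3 at 138, 128 and 108 CPM. Of the YAP and TAZ list 11 of 20 were higher, with Ccn2 at 25.0, 22.4 and 16.3 CPM. Rescue also differed from WT at 24 h LCM, with 3753 of 15114 genes called, 2034 higher and 1719 lower in Rescue.

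Fold changes were not spread evenly over the genome. Genes on the X chromosome had a median log2 fold change of -0.50, and 40.1% of its 481 tested genes fell and 6.24% rose. Genes on chromosomes 5 and 18 had medians of -0.34 and -0.33, and those on 19 and 3 of -0.25 and -0.23. On the higher side were chromosomes 17, 4, 15 and 14 with medians of 0.28, 0.26, 0.22 and 0.21. Each of the 3 PKP4-KO libraries deviated in the same direction on these 9 chromosomes, as the plot by chromosome shows. Chromosome 2, which carries Pkp4, had a smaller median of -0.14, with -0.13, -0.14 and -0.16 in the 3 PKP4-KO libraries. Of its 1180 tested genes, 22.2% rose and 29.6% fell, against 19.7% and 20.6% of all genes. A link of these shares to the Pkp4 locus was not tested. In HCM at 24 h the median was -0.40 for X, -0.34 for 5 and 0.26 for 4. With library sizes alone all medians shifted by about the -0.23 of all genes. The genotypes were isolated from different pups and differed in Xist, and the part of that in these medians was not tested. Of the genes named above, Flna, Prdx4, Stard8, Timp1 and Xist lie on X. Snai1 and Ctsz, from the genes of largest rise, lie on chromosome 2. Chromosome 18 carries all the desmosomal cadherins named (Dsg1a, Dsg1b, Dsg2, Dsg3, Dsc2 and Dsc3), and also Ablim3, Ctnna1, Diaph1, Egr1, Hbegf, Lama3, Myo5b, Pmaip1, Rock1 and Smad2.

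**Figure D5:**
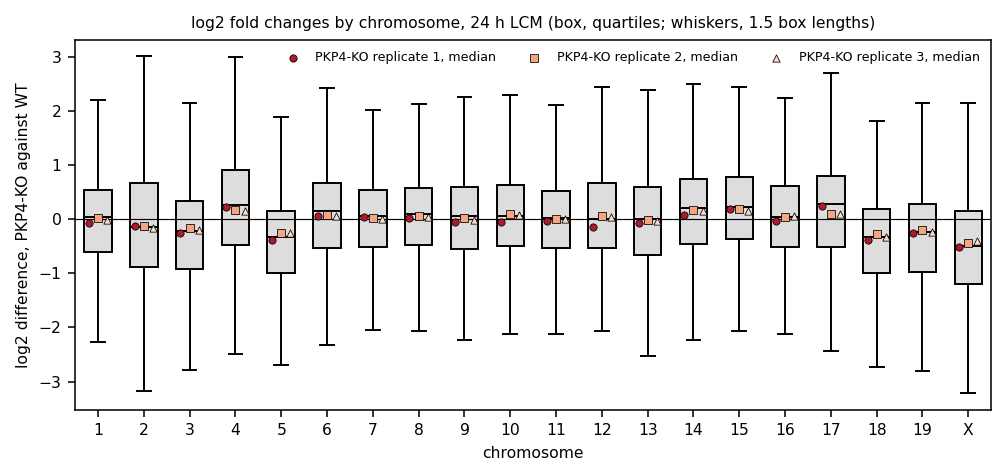
Boxes give the quartiles of the log2 fold change of PKP4-KO over WT at 24 h LCM (y axis) for the tested genes of each chromosome (x axis), the line in the box the median, and whiskers reach at most 1.5 box lengths. Points are the median log2 difference of each PKP4-KO library from the WT mean, and X (median -0.50), 5 and 18 lie below 0 and 4, 14, 15 and 17 above it in all 3 libraries.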

How the data were processed

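Poly(A) RNA of 36 libraries was sequenced strand-specifically as paired ends, in 12 groups of 3 (3 genotypes, 2 media, 24 and 72 h). The authors aligned reads with HISAT2 2.1.0, handled them with SAMtools 1.10 and counted them per gene with featureCounts 2.0.0 on GRCm39 (per the submitters' processing notes and the study's methods), and deposited these raw counts for 55358 genes, unnormalised. Groups were taken from the sample labels, and 0 columns of other samples were left unused. Counts were tested with edgeR 4.0.16 (R 4.3.3), the quasi-likelihood test, TMM factors, the filterByExpr filter and all 12 group means in 1 fit, with Benjamini-Hochberg adjustment and a threshold of 0.05. SE is the absolute log2 fold change divided by the square root of F. CPM values use TMM-scaled library sizes. A gene with 0 counts in a group is set against a floor of 3 counts per library.

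Genes were named by a rule: Pkp4, the construct, the 12 largest changes in each direction (protein-coding, 10 CPM or more in 1 group, libraries not overlapping, no clone names), members of the gene lists and the 5 largest differences of effect in each direction. Some genes that the rule names are not reported here. The comparison, lists and tests were chosen with earlier results of these data known. Alternatives were DESeq2 1.42.0, no TMM factors, other filters, only the groups compared, a replicate block and leaving out each library. Leaving out both first libraries and the offset for gene length were added after seeing the data. On simulated counts with the library sizes and dispersions of the series (14651 genes tested, 200 changed), a log2 change of 1 was recovered in 51% and a change of 2 in 92% of altered genes, with 7 false among 150 calls. Apart from the changed genes, all groups shared 1 mean per gene, and no length trend or deviating library was put in. These rates may therefore not hold for the real comparison, in which 40.2% of genes were called. Sequences were read from GRCm39 and, for promoters, from RefSeq on GRCm38.p6.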

Additional observations from a re-analysis of the deposited data

Results flagged for a closer look

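The PKP4-KO effect differed between media or times, by the edgeR test of the difference, for the genes below, given as the log2 fold change at 24 h LCM minus that in the other condition. Against 24 h HCM, the retinoic acid hydroxylase Cyp26b1 differed by -2.04, the catenin-like gene Ctnnal1 by -1.98, the p53 relative Trp73 by -1.87, E2f2 by -1.82 and the death receptor Fas by -1.77. Aqp5 differed by 5.35, Prr15l by 4.60, Areg by 3.89, Cldn23 by 3.78 and Cnfn by 3.73. For Aqp5, Prr15l and Cldn23 the level in WT at 24 h LCM was at most 1.30 CPM, so that the 24 h LCM effect rests on few reads.

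Against 72 h LCM, Ndufa4l2 differed by -5.56, the glycolytic enzyme Aldoc by -5.49, Nxph4 by -5.15 and Myo5b by -4.56. Pbp2 differed by 4.23, Slc29a1 by 2.75, Txnip by 2.63, Timp3 by 2.53 and AU018091 by 2.29. At 24 h LCM, Aldoc was at 15.3, 2.16 and 0.677 CPM in WT, highest in the replicate that held myelin and neuronal RNA. Without that library its difference was -3.39 and its log2 fold change at 24 h LCM turned from -1.36 (adjusted p = 0.052) to 0.74 (adjusted p = 0.17), neither past the threshold. Other values moved by over 1.5-fold without 1 library: Cnfn was 3.06 and Ndufa4l2 -6.22 without PKP4-KO 24 h LCM replicate 1, Cldn23 was 2.96 and Txnip 2.03 without PKP4-KO 24 h LCM replicate 3, Pbp2 was 5.64 without PKP4-KO 72 h LCM replicate 2, and Prr15l was 5.71 without WT 24 h LCM replicate 2 and 4.004 without replicate 3. The difference of Prr15l lost its call under 8 alternatives, that of AU018091 under 8 and those of E2f2, Cldn23 and Ndufa4l2 under 1 each.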

How the results depend on the processing

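Leaving out 1 library at a time gave 4683 (without WT replicate 1) to 5657 genes for PKP4-KO against WT at 24 h LCM, 417 to 578 for the difference from 24 h HCM, 544 to 826 for that from 72 h LCM and 4066 to 4970 for Rescue against PKP4-KO. With both first libraries left out, PKP4-KO against WT gave 4031 genes and the difference from HCM 312 (231 higher, 81 lower). That difference gave 366 genes without TMM factors, 349 (263 and 86) with no filter on low counts and 255 (176 and 79) with only the groups compared, and the difference from 72 h LCM gave 516 (124 higher, 392 lower) with no filter and 439 (98 and 341) with only the groups compared. The cause was not tested. DESeq2 gave 6475, 903, 1106 and 5451 genes. Without TMM factors the medians of all 20 chromosomes moved. No named gene changed direction among called values, and of the named genes' alternative values 3284 kept their side of the threshold, 232 lost it and 16 gained it. Replicate numbers did not pair the libraries (correlations of -0.08, -0.22 and 0.09 for numbers 1 to 3, from different pups), and with a replicate block 5948, 595, 767 and 4973 genes were called. The exact test of Pkp4 could not go below p = 0.1. At this depth, 3 counts correspond to 0.140 to 0.211 TMM-scaled CPM over the 6 libraries, and differences under that level were not detectable.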
